A study of Sus scrofa with 12 samples.

Results

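The 6 genes described here are carried by the mitochondrial genome and encode subunits of respiratory complexes III, IV and V. They are MT-CYB (ENSSSCG00000018094) of complex III, MT-CO1 (ENSSSCG00000018075), MT-CO2 (ENSSSCG00000018078) and MT-CO3 (ENSSSCG00000018082) of complex IV, and MT-ATP6 (ENSSSCG00000018081) and MT-ATP8 (ENSSSCG00000018080) of complex V. They were chosen by identifier, not by their values, and are 6 of the 32518 genes in the deposited expression table. A table of gene names pairs the same identifiers with the symbols CYTB, COX1, COX2, COX3, ATP6 and ATP8. RNA was sequenced from IPEC-J2, an established epithelial cell line from pig small intestine. The cells were untreated or received deoxyshikonin, a plant naphthoquinone, at 5 µmol/L. Untreated and treated cells were sampled 6 h and 24 h later, which gives 4 groups of 3 libraries, 12 in all. The controls are described as non-treated, and no vehicle is named. The sources used here do not say whether the libraries of a group came from separate cultures, so the p-values measure the spread between libraries, which may be technical.

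Mitochondrial DNA is transcribed from few promoters into long precursors, and the transfer RNAs that lie between many of the coding sequences are cut out to release the messenger RNAs. Genes of one strand can therefore share a precursor and still differ in the level of their mature RNA, which also depends on processing and decay. Complex III passes electrons from ubiquinol to cytochrome c, complex IV passes them on to oxygen, and complex V makes ATP with the proton gradient that results. Each of these complexes also contains subunits encoded in the nucleus.

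Expression was given as TPM, the abundance of a gene per length and relative to the library's total. A level can be compared between genes, with caution where genes overlap, while the sequencing depth is unknown. Markers of epithelium were high, with summed TPM of 2738 to 4835 over 4 matched genes (KRT8, KRT18, CDH1 and EPCAM). Of the 14 markers of fibroblasts, leukocytes and endothelium, 9 stayed below 1 TPM in every library, PTPRC, CD3E, CDH5 and KDR among them. The exceptions included CD79A, at 266 to 335 TPM, and PECAM1, at 9.45 to 24.7 TPM. In the bulk samples, fewer cells of a type and less RNA per cell cannot be told apart.

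The complex V pair overlaps in the genome, which bears on how its 2 values can be read. In RefSeq's mitochondrial record of assembly Sscrofa11.1, all 6 genes lie on the plus strand, and the build behind the deposited table is not given in the sources used here. The annotated lengths are 1545 bases for MT-CO1, 688 for MT-CO2, 204 for MT-ATP8, 681 for MT-ATP6, 784 for MT-CO3 and 1140 for MT-CYB. MT-ATP8, MT-ATP6 and MT-CO3 follow each other without a gap. The whole of MT-ATP8 is shown 5′ to 3′ because its last 43 bases, in capitals and 21.1% of its length, are also the first bases of MT-ATP6.
MT-ATP8: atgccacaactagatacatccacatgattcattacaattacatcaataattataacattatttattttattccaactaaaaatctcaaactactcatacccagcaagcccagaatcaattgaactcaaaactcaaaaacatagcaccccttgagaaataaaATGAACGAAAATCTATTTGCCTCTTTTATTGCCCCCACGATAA
The capitals open with the ATG of MT-ATP6 at base 162 of MT-ATP8 and end with the TAA stop codon of MT-ATP8. MT-ATP6 and MT-CO3 share 1 base, shown in capitals with 30 bases on each side, where the last base of one gene is the first of the next.
Junction of MT-ATP6 and MT-CO3: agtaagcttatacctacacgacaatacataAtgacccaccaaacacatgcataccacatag
The sources used here do not say how reads in the shared stretch were divided, or whether strand was used, so the MT-ATP8 value is uncertain.

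The 6 genes held 8.16% ± 0.105 of the summed TPM in untreated cells at 6 h (SD, n = 3) and 8.34% ± 0.372 at 24 h. In treated cells they held 7.12% ± 0.103 at 6 h and 7.28% ± 0.379 at 24 h. The treated libraries lay below all untreated libraries of the same time. The other protein-coding genes of this genome are the 7 mitochondrially encoded subunits of complex I. They held 3.67% ± 0.0652 in untreated and 3.63% ± 0.0693 in treated cells at 6 h. At 24 h they held 4.04% ± 0.481 in untreated and 3.68% ± 0.178 in treated cells. Treated and untreated libraries overlapped at both times.

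MT-CYB, cytochrome b, is the only complex III subunit made in the mitochondrion. It stood at 4161, 4221 and 4193 TPM in untreated and 3885, 3707 and 4013 TPM in treated cells at 6 h. At 24 h it stood at 7794, 8101 and 6924 TPM in untreated and 5670.4, 5233 and 4839 TPM in treated cells. The groups did not overlap in any of the 4 pairs of groups that differ in treatment or in time. Among all genes ordered by TPM, it took places 27 to 29 in untreated and 39 to 43 in treated libraries at 6 h, and places 9 to 15 and 21 to 26 at 24 h.

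MT-CO1 encodes the catalytic core of complex IV and was first or second of all genes in every library. Its levels were 34299.9, 35986 and 35212 TPM in untreated and 30303, 29901 and 31062 TPM in treated cells at 6 h. At 24 h they were 28085, 29755 and 27033 TPM in untreated and 25329, 24714 and 23207 TPM in treated cells. Each treated group was below its control, and each 24 h group below its 6 h group, without overlap.

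MT-CO2 encodes the subunit that takes electrons from cytochrome c. At 6 h it stood at 13746, 13586 and 13336 TPM in untreated and 11030.0, 11104 and 11338 TPM in treated cells. At 24 h the values were 16806.5, 18028 and 15669.6 TPM in untreated and 15009, 13846 and 13153 TPM in treated cells. Treated libraries were again below their controls, but within each treatment the 24 h libraries lay above the 6 h libraries, opposite to MT-CO1.

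MT-CO3 encodes the third core subunit of complex IV. It stood at 17641, 18010.3 and 18227 TPM in untreated cells at 6 h, above all other libraries. The other values were 15622, 15937 and 15881 TPM in treated cells at 6 h, 15751.5, 16208 and 15709.7 TPM in untreated cells at 24 h, and 15884, 15337 and 14679 TPM in treated cells at 24 h. These 3 groups overlapped one another.

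MT-ATP6 encodes the subunit of complex V that forms part of its proton path. At 6 h it stood at 10345.0, 10466.5 and 10826 TPM in untreated and 9636, 9887 and 9995 TPM in treated cells. At 24 h it stood at 14254, 14889 and 14423 TPM in untreated and 14441, 13368 and 12898 TPM in treated cells. Both 24 h groups lay above both 6 h groups, and treated and untreated libraries overlapped at 24 h.

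MT-ATP8 encodes a small membrane subunit of complex V. Its TPM, uncertain because of the overlap with MT-ATP6, was far below that of the other members. Its values were 192, 127 and 101 TPM in untreated and 141, 103 and 114 TPM in treated cells at 6 h. At 24 h they were 237, 298 and 116 TPM in untreated and 247, 229 and 221 TPM in treated cells. The SD was 42.8% of the mean in untreated cells at 24 h, against 0.715% to 8.03% over all groups of the other 5 genes. The treated 24 h libraries lay above all libraries of both 6 h groups, and all other pairs of groups overlapped.

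**Figure D1:**
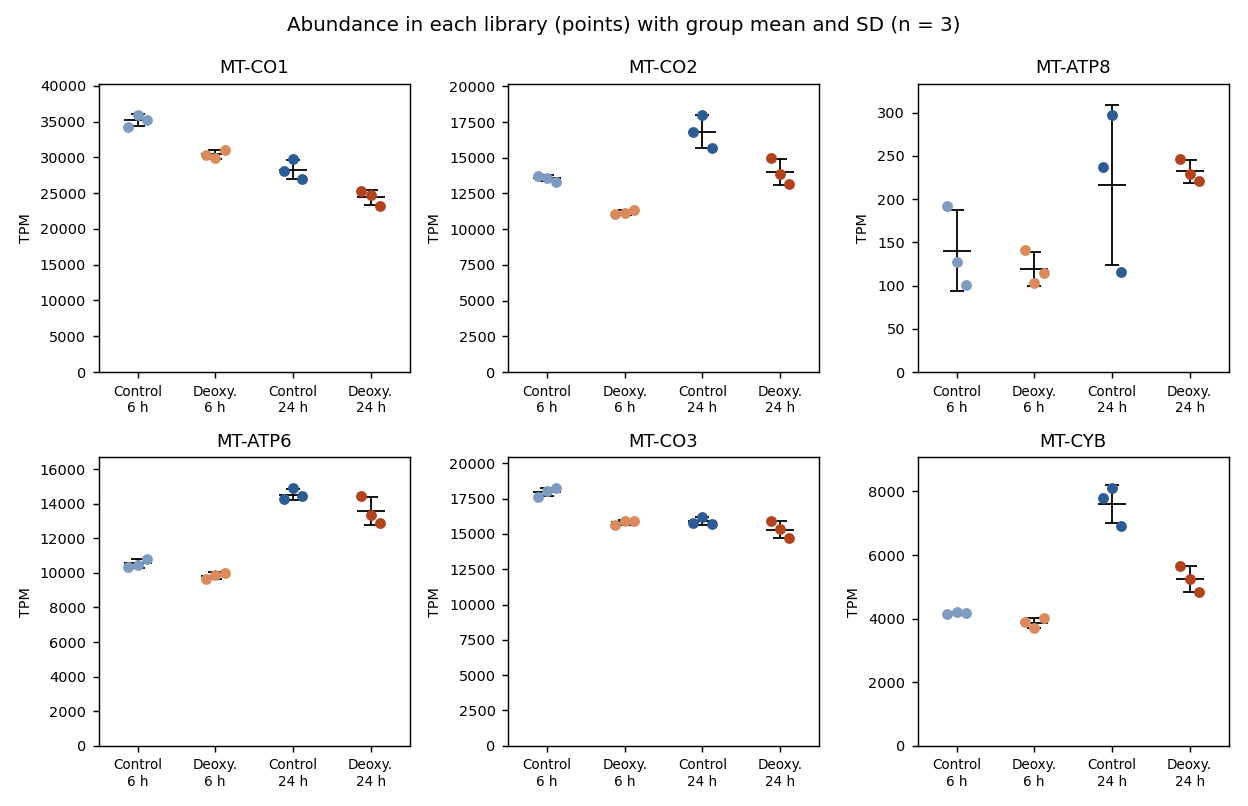
TPM (vertical axes, from 0, one scale per gene) of the 6 genes in each of the 12 libraries, by group, with "Deoxy." for deoxyshikonin; points are libraries, and the black bars are the group mean and SD (n = 3). MT-CO1 falls with treatment and with time, MT-CYB is highest in untreated cells at 24 h, at 6924 to 8101 TPM, and the 3 libraries of untreated cells at 24 h are spread from 116 to 298 TPM for MT-ATP8.

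In untreated cells the mean levels ran MT-CO1 (35166 ± 844 TPM, SD, n = 3), MT-CO3 (17959 ± 296 TPM), MT-CO2 (13556 ± 207 TPM), MT-ATP6 (10546 ± 249.9 TPM), MT-CYB (4192 ± 29.97 TPM) and MT-ATP8 (140.1 ± 46.8 TPM) at 6 h. No neighbours in that order overlapped, and the place of MT-ATP8 rests on its uncertain value. At 24 h MT-CO1 (28291 ± 1373 TPM) again came first and MT-CYB (7606 ± 611 TPM) and MT-ATP8 (217 ± 92.7 TPM) last. Between them, MT-CO2 (16835 ± 1179 TPM) and MT-CO3 (15889.7 ± 276 TPM) overlapped and did not differ beyond their spread, followed by MT-ATP6 (14522 ± 329 TPM).

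The first comparison asked how treated cells differed from untreated cells at 6 h. The 4 genes MT-CO1, MT-CO2, MT-CO3 and MT-ATP6 were lower in treated cells, and none was higher by limma, also at an unadjusted p under 0.05. The fall was of about the size seen across all genes. The tests were run on log2(TPM + 1) with limma across 11897 genes whose TPM averaged 1 or more over the libraries, with Benjamini-Hochberg adjustment and a threshold of 0.05. Of all tested genes, 48.7% were called lower and 26.6% higher, and the median log2 difference was -0.20. MT-CO2 fell by 0.28 on the log2 scale (SE 0.05, adjusted p = 0.000479), MT-CO1 by 0.21 (SE 0.04, adjusted p = 0.000561), MT-CO3 by 0.18 (SE 0.03, adjusted p = 0.000131) and MT-ATP6 by 0.10 (SE 0.04, adjusted p = 0.0347). MT-CYB was at -0.12 (95% interval -0.26 to 0.02, adjusted p = 0.118) and MT-ATP8 at -0.19 (95% interval -0.87 to 0.49, adjusted p = 0.590).

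Set against the median of all genes, the 6 h differences ran from -0.08 for MT-CO2 to 0.10 for MT-ATP6. Rescaling the libraries by the median of ratios, which moves the median of all genes from -0.20 to -0.07, left no member called by limma, and none at an unadjusted p under 0.05. The log2 differences then ran from -0.13 for MT-CO2 (adjusted p = 0.0866) to 0.05 for MT-ATP6. Over all genes the split of calls moved with it, from 3170 higher and 5798 lower to 4078 higher and 4876 lower. Quantile normalization, which gives each gene the value of its rank in the library, gave another set of calls, with MT-ATP6 (-0.52, adjusted p = 1.28e-06), MT-CYB (-0.39, adjusted p = 0.000581) and MT-CO3 (-0.27, adjusted p = 0.000266) lower. MT-CO1 (0.10, adjusted p = 0.176) and MT-CO2 (-0.10, adjusted p = 0.123) were then not called, and all genes split into 4140 higher and 4706 lower. The MT-ATP6 call was also lost without untreated replicate 2 or 3 or treated replicate 1 or 2 of 6 h, with adjusted p from 0.0606 to 0.121. Without a filter on low values MT-CO1 (adjusted p = 0.0749) and MT-ATP6 (adjusted p = 0.261) were not called, and in a fit of the 2 compared groups alone MT-CYB was (adjusted p = 0.0178). In the same libraries the summed epithelial markers stood at 4670 to 4830 TPM in untreated and 2738 to 2822 TPM in treated cells. By limma KRT18 (-1.05), EPCAM (-0.95) and KRT8 (-0.86) were lower, whereas CDH1 was higher (0.14, adjusted p = 0.00318). The summed fibroblast markers were at 9.16 to 9.72 and 5.80 to 6.81 TPM, and the endothelial ones at 10.8 to 15.6 and 20.3 to 25.1 TPM. The leukocyte sums overlapped at 273 to 281 and 271 to 274 TPM. They were mostly CD79A, which was not called by limma (-0.04, adjusted p = 0.403). CD14, the other leukocyte marker tested, was higher by 1.65 at 6 h (adjusted p = 1.04e-07) and by 1.13 at 24 h (adjusted p = 9.72e-06). The part of these markers in the result was not tested.

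The same comparison at 24 h found MT-CYB, MT-CO1 and MT-CO2 lower in treated cells, and by limma no member higher, also at an unadjusted p under 0.05. Of all tested genes, 18.1% were called lower and 32.2% higher, with a median log2 difference of 0.09. MT-CYB fell by 0.54 on the log2 scale (SE 0.06, adjusted p = 4.96e-05), a mean of 5248 ± 416 TPM against 7606 ± 611 TPM (SD, n = 3 in each group). MT-CO2 fell by 0.27 (SE 0.05, adjusted p = 0.00167) and MT-CO1 by 0.21 (SE 0.04, adjusted p = 0.00120). MT-ATP6 was at -0.10 (95% interval -0.18 to -0.01, adjusted p = 0.0518), MT-CO3 at -0.06 (95% interval -0.12 to 0.01, adjusted p = 0.136) and MT-ATP8 at 0.20 (95% interval -0.48 to 0.89, adjusted p = 0.611).

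Relative to the median of all genes at 24 h, MT-CYB stood at -0.62, MT-CO2 at -0.35, MT-CO1 at -0.30, MT-ATP6 at -0.19 and MT-CO3 at -0.14. With the median of ratios, 5 members were called lower, MT-ATP6 (-0.18, adjusted p = 0.0207) and MT-CO3 (-0.14, adjusted p = 0.0309) in addition. Over all genes the calls were then 2894 higher and 2942 lower, against 3831 and 2154. After quantile normalization MT-ATP6 (0.12, adjusted p = 0.0494) and MT-CO3 (0.14, adjusted p = 0.0265) were called higher. MT-CO2 (-0.14, adjusted p = 0.0566) and MT-CO1, at the same rank in all 6 libraries, were then not called, and MT-CYB was (-0.56, adjusted p = 0.000117), with 2971 of all genes higher and 3015 lower. Leaving out treated replicate 1 of 24 h also gave 5 members. Without a filter on low values MT-CO1 was not called (adjusted p = 0.0954). The summed epithelial markers overlapped at this time, at 4560 to 4835 TPM in untreated and 4555 to 4624 TPM in treated cells. Within the sum, KRT8 was lower (-0.22, adjusted p = 0.000381) and CDH1 higher (0.23, adjusted p = 0.000241) by limma. KRT18 and EPCAM were not called. The summed fibroblast markers, of which only COL1A1 and COL1A2 reached a mean of 1 TPM, were at 7.48 to 8.26 and 3.11 to 3.75 TPM, and their part in the result was not tested.

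The effect of treatment at 24 h was then set against that at 6 h. It was more negative at 24 h for MT-CYB and more positive for MT-CO3, while no difference between times was detected for the other members on the TPM as deposited. The interaction was -0.42 for MT-CYB (SE 0.09, adjusted p = 0.00184) and 0.13 for MT-CO3 (SE 0.04, adjusted p = 0.0177). Of all tested genes 45.0% had a positive and 18.0% a negative interaction by the same rule, with a median of 0.25. For MT-CO1 the interaction was -0.0033 (95% interval -0.13 to 0.12), for MT-CO2 0.015 (-0.15 to 0.18), for MT-ATP6 0.00062 (-0.12 to 0.12) and for MT-ATP8 0.39 (-0.57 to 1.36), with adjusted p from 0.452 to 0.993.

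Both interaction calls depended on the scaling. With the median of ratios the median of all genes fell to 0.04, and 4 members were called negative, MT-CYB at -0.65, MT-CO1 at -0.24, MT-ATP6 at -0.24 and MT-CO2 at -0.22. MT-CO3 then turned to -0.11 (adjusted p = 0.181), and it was not called without a filter on low values (adjusted p = 0.354) or with a prior variance without a trend (adjusted p = 0.0758). Over all genes the calls moved from 5355 positive and 2142 negative to 3774 and 3474. After quantile normalization MT-CYB was not called (-0.16, adjusted p = 0.205), whereas MT-ATP6 (0.64, adjusted p = 9.87e-06) and MT-CO3 (0.42, adjusted p = 0.000268) were called positive, with 3592 of all genes positive and 3513 negative.

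Between the 6 h and 24 h libraries the members differed in opposite directions. In untreated cells MT-CYB, MT-ATP6 and MT-CO2 were higher at 24 h than at 6 h, and MT-CO1 and MT-CO3 were lower. MT-CYB rose by 0.86 on the log2 scale (SE 0.06, adjusted p = 1.11e-06), MT-ATP6 by 0.46 (SE 0.04, adjusted p = 2.51e-06) and MT-CO2 by 0.31 (SE 0.05, adjusted p = 0.000445). MT-CO1 fell by 0.31 (SE 0.04, adjusted p = 5.49e-05) and MT-CO3 by 0.18 (SE 0.03, adjusted p = 0.000355). Of all tested genes, 22.2% were called higher and 34.2% lower, with a median of -0.07.

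MT-ATP8 was at 0.57 in that comparison (95% interval -0.11 to 1.25, adjusted p = 0.139), and without untreated replicate 3 of 24 h it was called higher (0.97, adjusted p = 0.00535). That library also had the lowest level of ND4L, a complex I subunit, at 8912 TPM against a group mean of 13035.5 TPM. The MT-CO3 call was lost without a filter on low values (adjusted p = 0.0668) and with the median of ratios (-0.07, adjusted p = 0.205), under which all genes split into 3606 higher and 3112 lower, against 2641 and 4068. After quantile normalization MT-ATP6 turned to -0.12 and was called lower (adjusted p = 0.0449), and MT-CO2 was not called (0.14, adjusted p = 0.0518).

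In treated cells MT-ATP8, MT-ATP6, MT-CYB and MT-CO2 were higher at 24 h than at 6 h, and MT-CO1 was lower. The rise was 0.97 for MT-ATP8 (SE 0.31, adjusted p = 0.0145), 0.46 for MT-ATP6 (SE 0.04, adjusted p = 7.82e-07), 0.44 for MT-CYB (SE 0.06, adjusted p = 7.11e-05) and 0.33 for MT-CO2 (SE 0.05, adjusted p = 0.000162). MT-CO1 fell by 0.32 (SE 0.04, adjusted p = 2.20e-05). The MT-CO2 call was lost after quantile normalization (0.10, adjusted p = 0.122), where 4362 of all genes were higher and 4537 lower. MT-CO3 was at -0.05 (95% interval -0.11 to 0.02, adjusted p = 0.152), and with the median of ratios it was called lower (-0.18, adjusted p = 0.00438), as it was without treated replicate 1 of 24 h (-0.08, adjusted p = 0.0308). Of all tested genes, 46.8% were called higher and 28.2% lower, with a median of 0.16, and with the median of ratios 4775 were higher and 4230 lower, against 5568 and 3350.

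**Figure D2:**
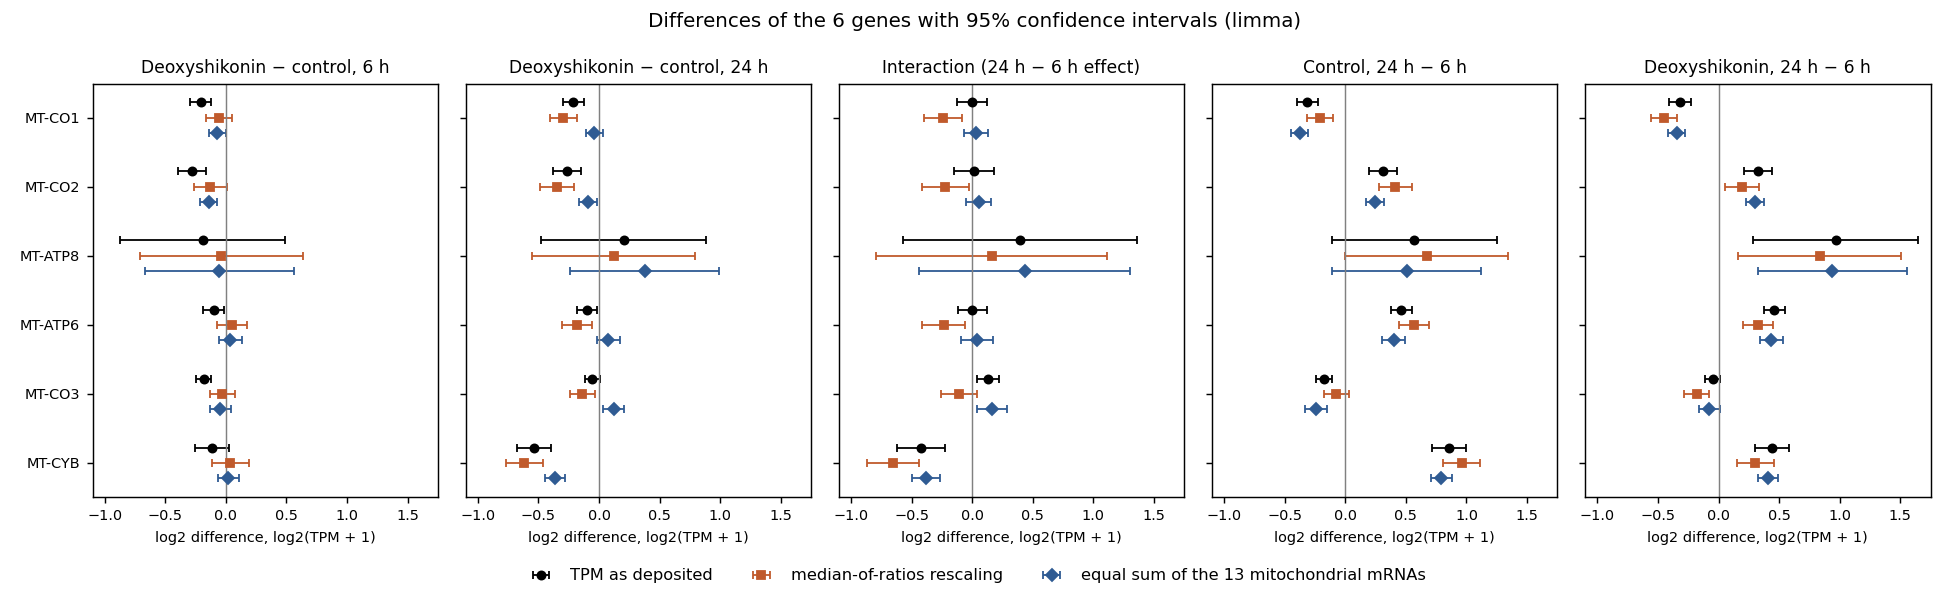
Log2 differences of the 6 genes (horizontal axes, on log2(TPM + 1)) in the 5 comparisons, with 95% confidence intervals from limma. Black circles are the TPM as deposited and orange squares the median-of-ratios rescaling. Blue diamonds are an equal sum of the 13 mitochondrial protein-coding genes, labelled as mRNAs. MT-CYB lies at -0.54 in the 24 h comparison and below 0 under all 3 scalings, whereas the 6 h differences of MT-ATP6 and MT-CYB change sign with either rescaling and that of MT-CO2 is -0.13 and -0.14.

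The shares of the members in the summed TPM of the 13 mitochondrial protein-coding genes do not depend on how a library is scaled. They are given as a description, and are shares of values per gene, not of separate messenger RNAs. MT-CO1 held 29.7% ± 0.536 of the 13 in untreated and 28.3% ± 0.198 in treated cells at 6 h (SD, n = 3), and 22.9% ± 0.581 and 22.3% ± 0.224 at 24 h. MT-CYB held 3.54% ± 0.0268 and 3.60% ± 0.102 at 6 h, and 6.14% ± 0.102 and 4.78% ± 0.139 at 24 h. Thus MT-CYB overlapped between treated and untreated cells at 6 h and stood clear of them at 24 h, while MT-CO1 overlapped only at 24 h.

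MT-CO2 held a lower share in treated cells at both times without overlap, 10.4% ± 0.0404 against 11.5% ± 0.293 at 6 h and 12.8% ± 0.252 against 13.6% ± 0.150 at 24 h. MT-CO3 went from 15.2% ± 0.0899 in untreated to 14.7% ± 0.233 in treated cells at 6 h, and from 12.9% ± 0.713 to 14.0% ± 0.157 at 24 h. MT-ATP6 overlapped between treated and untreated cells at both times, at 8.92% ± 0.135 and 9.15% ± 0.120 at 6 h and 11.8% ± 0.691 and 12.4% ± 0.207 at 24 h. For MT-CO3 the lower share in treated cells at 6 h and the higher one at 24 h were both without overlap.

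When the libraries were rescaled to an equal sum of the 13, a setting chosen after seeing the data, MT-CO2 remained called at 6 h (-0.14, adjusted p = 0.00237) as the only member. At 24 h MT-CYB (-0.36, adjusted p = 1.80e-05) and MT-CO2 (-0.09, adjusted p = 0.0356) were lower and MT-CO3 was higher (0.12, adjusted p = 0.0245). On this scale 6017 of all genes were higher and 1085 lower at 24 h, with a median of 0.24, and 3743 were higher and 4728 lower at 6 h. The MT-CO1 difference at 24 h was -0.04 (adjusted p = 0.328). The interactions of MT-CYB (-0.38, adjusted p = 0.000105) and MT-CO3 (0.17, adjusted p = 0.0273) were called.

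**Figure D3:**
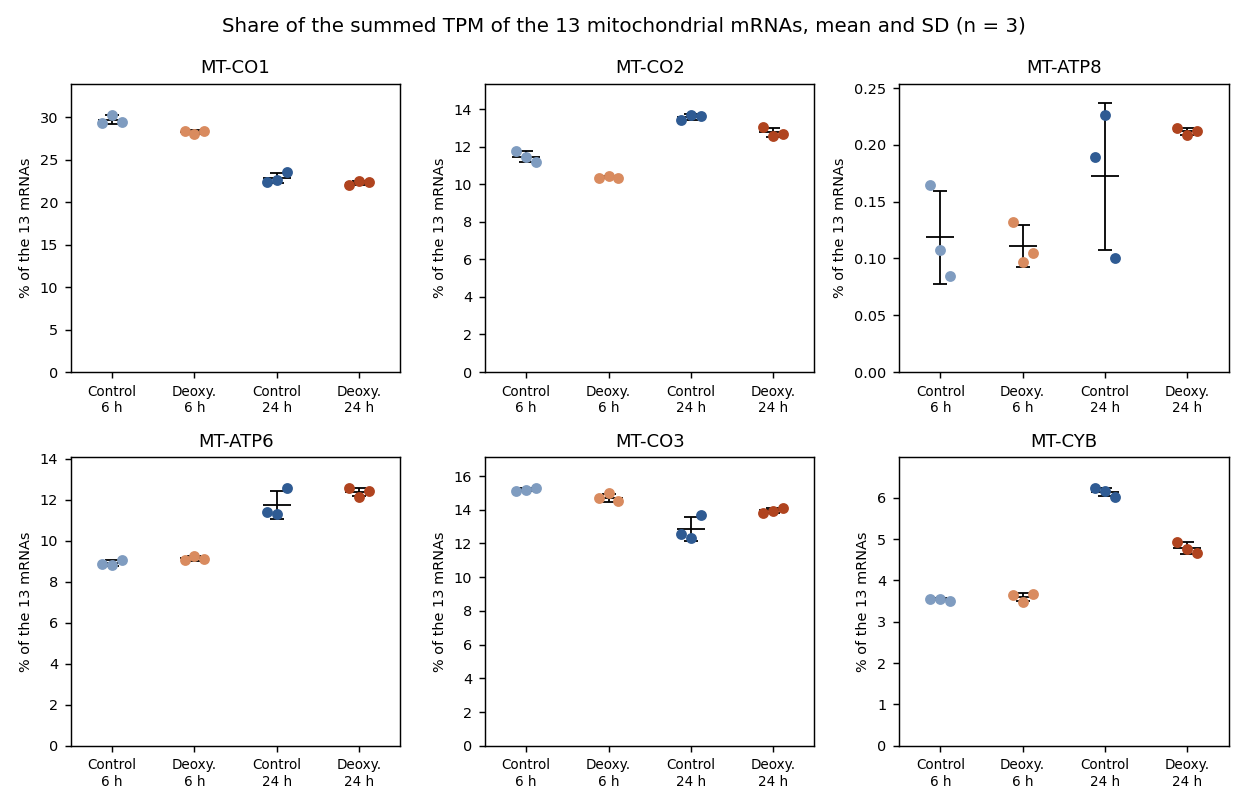
Share of each of the 6 genes in the summed TPM of the 13 mitochondrial protein-coding genes, labelled as mRNAs (vertical axes in percent, from 0). Groups are shown with "Deoxy." for deoxyshikonin, points are libraries, and the black bars are the group mean and SD (n = 3). MT-CO1 drops from 29.7% to 22.9% between the untreated groups while MT-CYB goes from 3.54% to 6.14%, and to 4.78% in treated cells.

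Ratios between members show the same measurements pair by pair. MT-ATP6 and MT-CO3 are direct neighbours that share a base, and MT-ATP6 was 58.7% ± 0.643 of MT-CO3 in untreated cells at 6 h and 91.4% ± 0.775 at 24 h (SD, n = 3). In treated cells it was 62.2% ± 0.647 and 88.6% ± 2.00. The times did not overlap, and treated and untreated libraries overlapped at 24 h alone.

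MT-CO2 was 38.6% ± 1.31 and 36.7% ± 0.399 of MT-CO1 in untreated and treated cells at 6 h, and 59.5% ± 1.35 and 57.3% ± 1.71 at 24 h. MT-CYB was 11.9% ± 0.201 and 12.7% ± 0.278 of MT-CO1 at 6 h, and 26.9% ± 1.11 and 21.5% ± 0.809 at 24 h. The MT-CYB ratio was thus higher in treated cells at 6 h and lower at 24 h, without overlap at either time. MT-ATP8 ranged from 0.802% to 2.00% of MT-ATP6 over the 3 untreated libraries of 24 h, and was 1.71% in each of the 3 treated libraries of that time.

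**Figure D4:**
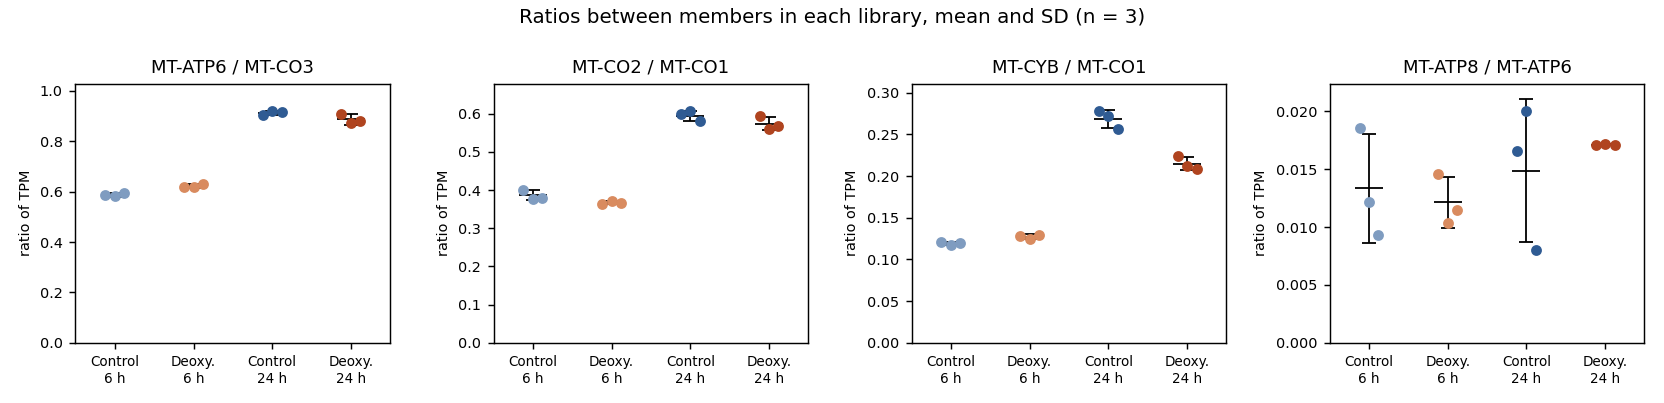
Ratios of TPM between members (vertical axes, from 0) in each of the 12 libraries, by group, with "Deoxy." for deoxyshikonin; points are libraries, and the black bars are the group mean and SD (n = 3). The first 3 ratios are higher in every 24 h library than in every 6 h library, and the ratio of MT-ATP8 to MT-ATP6 spreads widely in untreated cells.

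Over the 12 libraries the members fell into patterns that follow the differences between the times. Pearson's r of log2(TPM + 1) was 0.92 between MT-CO2 and MT-CYB, 0.92 between MT-ATP6 and MT-CYB and 0.90 between MT-CO1 and MT-CO3. It was -0.64 between MT-CO1 and MT-ATP6. Each member had a higher r with many other genes than with any other member. Among 7507 candidates the closest fellow member took place 80 for MT-CYB, 145 for MT-CO2 and 453 for MT-ATP8, the lowest. The r values describe 12 libraries that share the group structure and their scaling. For the deviations from the group means, r was 0.93 between MT-CO2 and MT-CYB, 0.95 between MT-ATP6 and MT-CO3, 0.86 between MT-CO1 and MT-CO2 and -0.02 between MT-ATP8 and MT-ATP6.

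Among 7502 other genes averaging 10 TPM or more, the highest mean r with the 6 members over the 12 libraries was 0.54, for NRN1, which encodes neuritin, and 0.53, for AGRN, which encodes agrin. NRN1 had r = 0.96 with MT-CO2 and -0.05 with MT-CO1. AGRN had r = 0.93 with MT-CO2. NRN1 stood at 21.7 ± 0.578 TPM in untreated and 14.98 ± 0.301 TPM in treated cells at 6 h (SD, n = 3), and AGRN at 153 ± 3.45 and 86.9 ± 9.18 TPM.

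The nuclear partners of the members were described from lists of genes. Tested were 6 of 9 listed genes for complex III, 9 of 11 for complex IV and 11 of 18 for complex V. For assembly 20 of 25 were tested, and for mitochondrial transcription and RNA handling 25 of 28. The rest had no match by symbol or averaged under 1 TPM. At 6 h the nuclear subunits of complex III and complex V were lower in treated cells. All 6 tested complex III subunits were lower, with a median log2 difference of -0.63 beside -0.20 for all genes, of which 48.7% were lower. CYC1, cytochrome c1, fell by 1.33 (adjusted p = 4.11e-08), UQCRQ by 0.90 (adjusted p = 8.72e-08) and UQCRC1 by 0.65 (adjusted p = 4.01e-07). All 6 were also lower with the median of ratios, where the median was -0.48.

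All 11 tested complex V subunits were lower at 6 h, with a median of -0.38, and 7 of them with the median of ratios. Over all tested genes 48.7% were lower and 26.6% higher at 6 h. ATP5PO, of the stalk that joins the catalytic head of complex V to the membrane, fell by 0.37 (adjusted p = 2.02e-06). The more abundant ATP5MC1, ATP5MK and ATP5IF1 fell less, by 0.12, 0.14 and 0.29. ATP5IF1 encodes an inhibitor of complex V and is counted here with the subunits. Of 9 complex IV subunits 6 were lower and 1 was higher, with a median of -0.19. COX4I1 fell by 0.17 (adjusted p = 0.0230) and COX8A by 0.41 (adjusted p = 0.000180). COX7A2, the 1 called higher, rose by 0.21 (adjusted p = 0.0168), and NDUFA4 was not called (0.05, adjusted p = 0.378). With the median of ratios, 3 complex IV subunits were lower and 2 higher.

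At 24 h of treatment the nuclear lists had medians nearer to 0. Of the complex III subunits 3 were lower and none higher by limma, also unadjusted (median -0.13). Of the 9 complex IV subunits 4 were higher and 2 lower (median 0.01), and of the 11 complex V subunits 4 were higher and 3 lower (median -0.07). Over all tested genes 32.2% were higher and 18.1% lower, with a median of 0.09. ATP5MC1, a subunit of the rotating ring of complex V, rose by 0.38 (adjusted p = 0.000107), and NDUFA4, counted here with complex IV, rose by 0.38 (adjusted p = 0.000146). With the median of ratios the counts were 0 higher and 4 lower for complex III, 2 and 3 for complex IV, and 3 and 6 for complex V.

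With time in untreated cells the nuclear subunits were lower or not called. Of the complex III subunits 5 of 6 were lower (median -0.37), of complex IV 5 of 9 (median -0.22) and of complex V 11 of 11 (median -0.38). Over all tested genes 34.2% were lower, with a median of -0.07. MT-CYB, MT-CO2 and MT-ATP6 were higher in the same comparison. With the median of ratios the nuclear counts were 5, 4 and 8 lower. By limma none was higher under either scaling, also at an unadjusted p under 0.05.

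Genes for the assembly of these complexes were lower at 6 h of treatment for 13 of 20 and higher for 2 (median -0.37). Over all tested genes 48.7% were lower and 26.6% higher. COX17, which delivers copper for complex IV, fell by 0.45 at 6 h (adjusted p = 3.37e-05) and rose by 0.30 at 24 h (adjusted p = 0.00186). At 24 h, 5 assembly genes of 20 were higher and 1 lower (median 0.04), beside 32.2% and 18.1% of all tested genes. With time in untreated cells 15 were lower and 1, OXA1L, which inserts proteins into the inner membrane, was higher (0.19, adjusted p = 0.00313), beside 34.2% of all genes lower and 22.2% higher. The assembly counts with the median of ratios were 3 higher and 11 lower at 6 h, 4 and 2 at 24 h, and 1 and 8 with time in untreated cells.

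Of 25 genes for transcription of mitochondrial DNA and handling of its RNA, 6 were higher and 11 lower at 6 h (median -0.14). These counts are near the shares over all tested genes, 26.6% higher and 48.7% lower. PRORP, the nuclease of the enzyme that cuts the 5′ ends of mitochondrial transfer RNAs, rose by 0.99 at 6 h (adjusted p = 4.34e-08) and by 0.43 at 24 h (adjusted p = 0.000131). LRPPRC, which binds and stabilises mitochondrial messenger RNAs, fell by 0.43 at 6 h (adjusted p = 7.21e-06) and by 0.39 at 24 h (adjusted p = 6.92e-05). The more abundant MTERF3 fell by 0.48 at 6 h (adjusted p = 4.15e-06) and by 0.15 at 24 h (adjusted p = 0.0311). SLIRP fell by 0.34 at 6 h (adjusted p = 0.0163) and was not called at 24 h (0.17, adjusted p = 0.238). At 24 h 3 of the 25 were higher and 2 lower (median 0.03), beside 32.2% and 18.1% of all tested genes. With time in untreated cells 23 of 25 were lower (median -0.37), beside 34.2% of all tested genes. With the median of ratios 18 were lower and 2 higher.

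**Figure D5:**
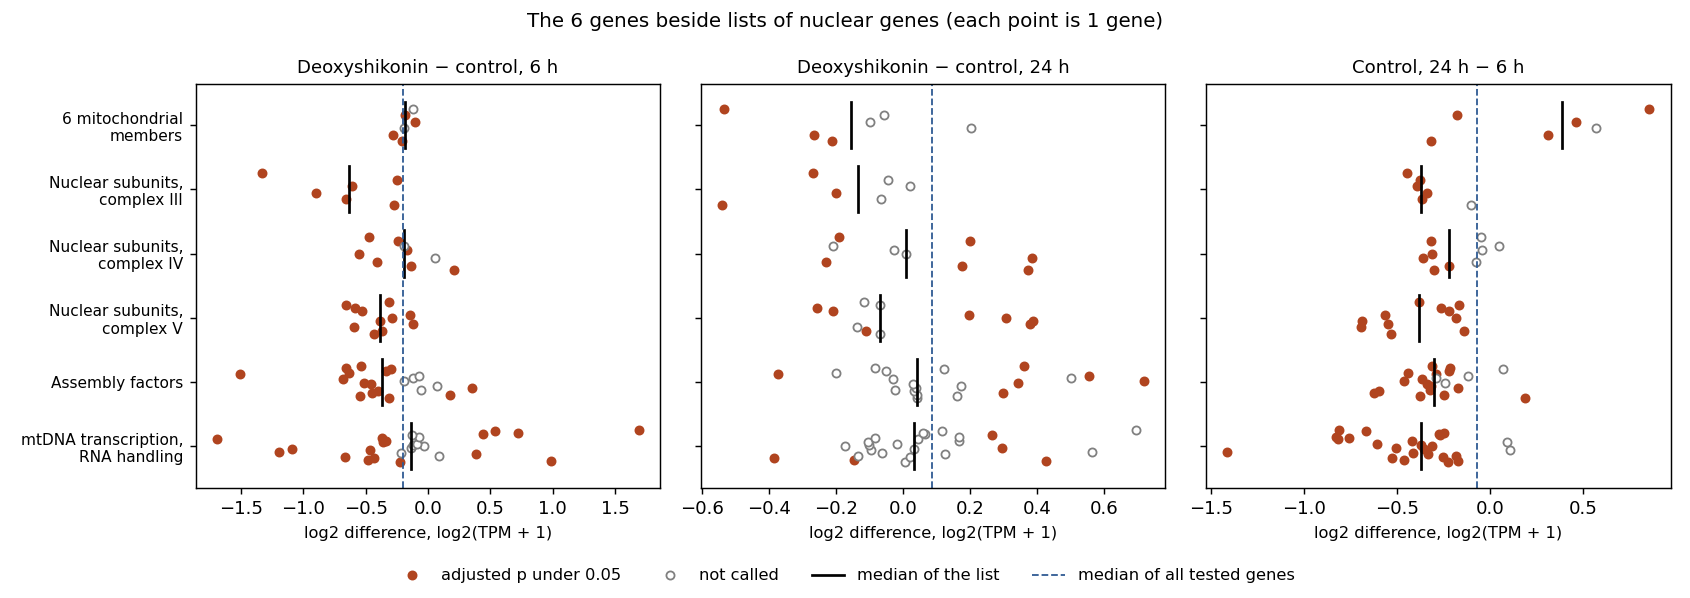
Log2 differences (horizontal axes, on log2(TPM + 1)) of the 6 genes and of 5 lists of nuclear genes in 3 comparisons; each point is 1 gene, filled where the adjusted p is under 0.05, black bars are list medians and the dashed line is the median of all tested genes. In untreated cells MT-CYB, MT-ATP6, MT-CO2 and, not called, MT-ATP8 lie to the right of 0 with time. The list medians lie between -0.38 and -0.22.

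The mitochondrially encoded complex I subunits also differed among themselves. At 6 h of treatment 1 of 7 was higher and 2 were lower (median -0.03), beside 26.6% and 48.7% of all tested genes. At 24 h 2 were lower and none higher by limma, also unadjusted (median -0.13), beside 18.1% and 32.2%. With time in untreated cells 3 were higher and 2 lower (median 0.10), beside 22.2% and 34.2%. With the median of ratios, 3 were higher and none lower at 6 h, also unadjusted, with a median of 0.13.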

How the data were processed

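RNA from 12 libraries of IPEC-J2 cells was compared. TRIzol-extracted, DNase-treated RNA was used, per the labels' protocols. The authors deposited 1 table of TPM for 32518 gene identifiers, and fastp, HISAT and RSEM are named, per the submitters' processing notes, without versions or roles. The genome build and the annotation are not given in the sources used here, so no coordinates are printed. TPM keeps no depth, so no counting interval is given, and since all libraries sum to one total, genes that gain lower the rest.

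Symbols came from a table that pairs 15029 identifiers with names, and sequences from RefSeq's Sscrofa11.1 record, by symbol. Nuclear copies of mitochondrial DNA were not examined. Values were tested as log2(TPM + 1), which understates changes of low genes, with limma 3.58.1 in R 4.3.3 (eBayes with a trend). All 4 groups entered 1 fit with 8 residual degrees of freedom, over genes whose TPM averaged 1 or more, with Benjamini-Hochberg adjustment in each of 5 comparisons. The procedure was tested on simulated data. Shares, ratios, correlations and lists have no test of their own.

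All 6 members are named whatever their values. Other genes named are the 2 with the highest mean r with the members and, from each list, some of those with the highest TPM. CYC1, ATP5PO, COX7A2 and LRPPRC are among the 4 highest of their lists. The members and lists were chosen with earlier results of these data known. The alternatives were a pseudocount of 0.1, no filter, a mean TPM of 5, median-of-ratios and quantile normalization, library totals without the members, a replicate block, a prior variance without a trend, only the compared groups and each library left out. An equal sum of the 13 mitochondrial protein-coding genes was added after seeing the data.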

Additional observations from a re-analysis of the deposited data

Results flagged for a closer look

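The treatment effect differed between 24 h and 6 h for 2 of the 6 genes by the interaction test (limma, Benjamini-Hochberg over all tested genes). By the same rule 63.0% of all tested genes were called, 45.0% positive and 18.0% negative. For MT-CYB the effect was -0.12 at 6 h, where it was not called (adjusted p = 0.118), and -0.54 at 24 h. The interaction was -0.42 (adjusted p = 0.00184), and after quantile normalization it was not called (-0.16, adjusted p = 0.205). All 3 treated libraries lay below all 3 untreated libraries at both times. For MT-CO3 the effect was -0.18 at 6 h and -0.06 at 24 h, an interaction of 0.13 (adjusted p = 0.0177), which turned to -0.11 with the median of ratios.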

How the results depend on the processing

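MT-CYB at 24 h of treatment kept its direction and call under all 22 alternatives run. So did MT-CYB and MT-CO1 with time in both treatments, and MT-ATP6 and MT-ATP8 with time in treated cells. The counts of genes called over the whole table stayed within 1.5 times of the values given in each of the 5 comparisons. At 6 h the members called moved from 4 to 2 without a filter and to 0 with the median of ratios. They moved to 1 with an equal sum of the 13 mitochondrial protein-coding genes. At 24 h they moved from 3 to 5 with the median of ratios, and between 3 and 5 when each library was left out. For the interaction they moved from 2 to 1 without a filter or without a trend, and to 4 with the median of ratios. Signs turned with the median of ratios for MT-ATP6 (0.054) and MT-CYB (0.038) at 6 h and for the interactions of MT-CO2 (-0.22), MT-ATP6 (-0.24) and MT-CO3 (-0.11). With quantile normalization, which sets the most abundant genes by rank alone, they turned for MT-CO1 at 6 h (0.10), MT-ATP6 (0.12) and MT-CO3 (0.14) at 24 h, the MT-CO2 interaction (-0.040) and MT-ATP6 with time in untreated cells (-0.12). With an equal sum of the 13 they turned for MT-ATP6 (0.038) and MT-CYB (0.021) at 6 h, MT-ATP6 (0.075) and MT-CO3 (0.12) at 24 h and the MT-CO1 interaction (0.033). The cause was not tested. With each library left out, MT-ATP8 ranged from -0.40 to 0.060 at 6 h and from -0.19 to 0.48 at 24 h. The interactions then ranged from -0.036 to 0.034 for MT-CO1, -0.036 to 0.066 for MT-CO2, -0.0022 to 0.68 for MT-ATP8 and -0.045 to 0.036 for MT-ATP6. A fit of only the compared groups cannot give the interaction. Groups share replicate numbers, but the mean correlation of same-numbered libraries' deviations was -0.0818 to 0.0734, so the numbers were not read as pairs. With the replicate block 8955 genes were called at 6 h, 5843 at 24 h, 7397 for the interaction, 6572 with time in untreated and 8849 in treated cells, against 8968, 5985, 7497, 6709 and 8918, and MT-ATP6 at 6 h was no longer called (adjusted p = 0.0571). Depth is unknown, which limits what can be said of MT-ATP8.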

Other observations

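Between the identifiers of the first and the last member lie 14 others, of which 9 were listed at 0 in all 12 libraries and the other 5 are complex I subunits. Outside that range, 2 identifiers without a symbol in the name table were singled out after their values were seen. ENSSSCG00000018061 stood at 408 ± 13.9 TPM in untreated and 992 ± 46.3 TPM in treated cells at 6 h, and at 241 ± 23.0 and 506 ± 15.9 TPM at 24 h (SD, n = 3). ENSSSCG00000018063 stood at 533 ± 16.2 and 1005 ± 51.9 TPM at 6 h, and at 460.2 ± 17.7 and 849 ± 21.5 TPM at 24 h. Both were higher in treated than in untreated cells at both times without overlap. As they were picked with these values known, the separation is a description only, and no test was made of them. Of all tested genes, 26.6% were called higher in treated cells at 6 h and 32.2% at 24 h.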
